A study of Mus with 16 samples.

Results

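The mRNAs of 9 germline silencers were followed in the mouse forebrain. They comprised 5 subunits of the Polycomb complex PRC1.6 (*E2f6*, *Mga*, *Max*, *L3mbtl2*, and *Pcgf6*) and 4 genes of DNA methylation (*Dnmt1*, *Uhrf1*, *Dnmt3a*, and *Dnmt3b*). The 9 were taken by their Ensembl identifiers from a table of 54219 genes, and were chosen with earlier results of these data known. All 9 were among the 17866 genes with enough reads to be tested. Bulk mRNA-seq was performed on the forebrain (hippocampus and cortex) of 16 mice at postnatal day 6 (P6) to ask how loss of the histone demethylase KDM5C alters transcription in each sex. The mutants were 4 hemizygous *Kdm5c* knockout males (*Kdm5c*-KO) and 4 heterozygous females (*Kdm5c*-HET), each compared with 4 wild-type (WT) animals of the same sex. *Kdm5c*-HET females keep 1 intact copy of this X-linked gene. All animals were of a mixed C57BL/6J and 129S1/SvImJ background, the mutants carried an allele made by Cre-mediated deletion of part of *Kdm5c*, and the tissue came from 3 litters. The labels do not say which animal came from which litter.

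PRC1.6 is a non-canonical Polycomb repressive complex that keeps germline genes off outside the germline. E2F6 and the MGA-MAX dimer bring the complex to DNA, and PCGF6 and L3MBTL2 belong to its core. Many promoters of germline genes also carry CpG islands that gain DNA methylation in the early embryo through the *de novo* methyltransferases DNMT3A and DNMT3B, and UHRF1 and DNMT1 then copy that methylation after each DNA replication. In the brain, DNMT3A has a further role, since it methylates neuronal DNA outside CpG sites after birth.

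Each animal is named here by the number and letter of its sample label, for example 6D. The letter is D or E, and the labels do not explain it. Letter E was carried by 2 WT females and 3 *Kdm5c*-HET females, and by 1 WT male and 2 *Kdm5c*-KO males, and 4219 of the genes tested (23.6%) differed between the letters within groups. Library totals lay between 21513783 and 30063352 counts. Of the marker genes of forebrain neurons that could be matched to an identifier, *Emx1* and *Rbfox3* were read in every animal, at 27.4 to 41.0 and 216 to 275 CPM (counts scaled to the library size). *Ttr*, a marker of the choroid plexus, spanned 6 to 5849 counts among WT males, with high values in 2D and 5D, but only between 40 and 60 in *Kdm5c*-KO males. The spread of *Ttr* was as wide in females, with 5389 and 5577 counts in WT females 1D and 3D against 79 and 97 in the others, and 17 to 2131 in *Kdm5c*-HET females. *Kdm5c* itself is not paired with an identifier in the tables used here, so its expression is not analysed here.

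All values below are TMM-normalized CPM, and Log2FC values come from edgeR's quasi-likelihood test with q-values adjusted over all genes tested. A gene was called when q was under 0.1. CPM values do not account for transcript length, so levels are compared between animals and not between genes. In bulk tissue, fewer cells of a type and less RNA per cell cannot be told apart.

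Among the DNA-binding subunits, *E2f6* encodes an E2F protein that represses rather than activates. It lies on chromosome 12 (ENSMUSG00000057469, chr12:16810909-16826752 on GRCm38.p6). WT males ran from 17.2 to 21.9 CPM of *E2f6* and *Kdm5c*-KO males from 18.3 to 21.4. WT females ran from 19.0 to 21.2 CPM, against 17.4 to 19.2 in *Kdm5c*-HET females. The 4 ranges overlapped, and the *Kdm5c*-HET females had the lowest mean, 18.5 ± 0.831 CPM (SD, n = 4). Every animal had at least 384 counts of *E2f6*.

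*Mga* encodes the large scaffold protein of PRC1.6, which binds E-box DNA together with MAX (ENSMUSG00000033943, chr2:119872503-119970129). In WT males, *Mga* was at 64.6 (2D), 59.2 (5D), 62.03 (7D), and 66.6 CPM (1E). In *Kdm5c*-KO males, it was at 68.3 (4D), 64.4 (6D), 68.2 (2E), and 74.9 CPM (3E). In WT females, it was at 74.7 (1D), 70.5 (3D), 75.7 (4E), and 73.4 CPM (5E). The WT males held the lowest values, every WT female was above every WT male, and the *Kdm5c*-KO males lay between and overlapped both. The *Kdm5c*-HET females, at 75.9 (9D), 73.4 (6E), 74.6 (8E), and 68.6 CPM (9E), overlapped the WT females.

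*Max*, the shared partner of the MYC, MXD, and MGA proteins (ENSMUSG00000059436, chr12:76937269-76962323), was the steadiest of the 9, with a coefficient of variation of 3.99% over the 16 animals. WT males ran from 51.1 to 58.1 CPM of *Max* and *Kdm5c*-KO males from 53.5 to 57.0. WT females ran from 52.3 to 54.4 CPM, against 50.9 to 53.4 in *Kdm5c*-HET females. *L3mbtl2*, whose protein holds MBT repeats that bind histones (ENSMUSG00000022394, chr15:81663889-81688315), varied little as well, with a coefficient of variation of 4.59%. WT males ran from 34.7 to 39.5 CPM of *L3mbtl2* and *Kdm5c*-KO males from 33.3 to 36.1. WT females ran from 33.6 to 36.6 CPM, against 34.4 to 37.0 in *Kdm5c*-HET females. For both genes, each mutant group overlapped the WT group of its sex.

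*Pcgf6* encodes the Polycomb ring finger protein that sets PRC1.6 apart from the other PRC1 complexes (ENSMUSG00000025050, chr19:47033617-47050939). Its levels were at 20.3 (2D), 13.7 (5D), 15.1 (7D), and 19.1 CPM (1E) in WT males and at 16.1 (4D), 13.8 (6D), 19.4 (2E), and 20.6 CPM (3E) in *Kdm5c*-KO males. In WT females, *Pcgf6* was at 19.7 (1D), 18.7 (3D), 25.1 (4E), and 21.1 CPM (5E). In *Kdm5c*-HET females, it was at 21.2 (9D), 20.3 (6E), 25.3 (8E), and 20.6 CPM (9E). The lowest values belonged to males of letter D, 5D and 6D, and the highest to females of letter E, 4E and 8E.

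**Figure D1:**
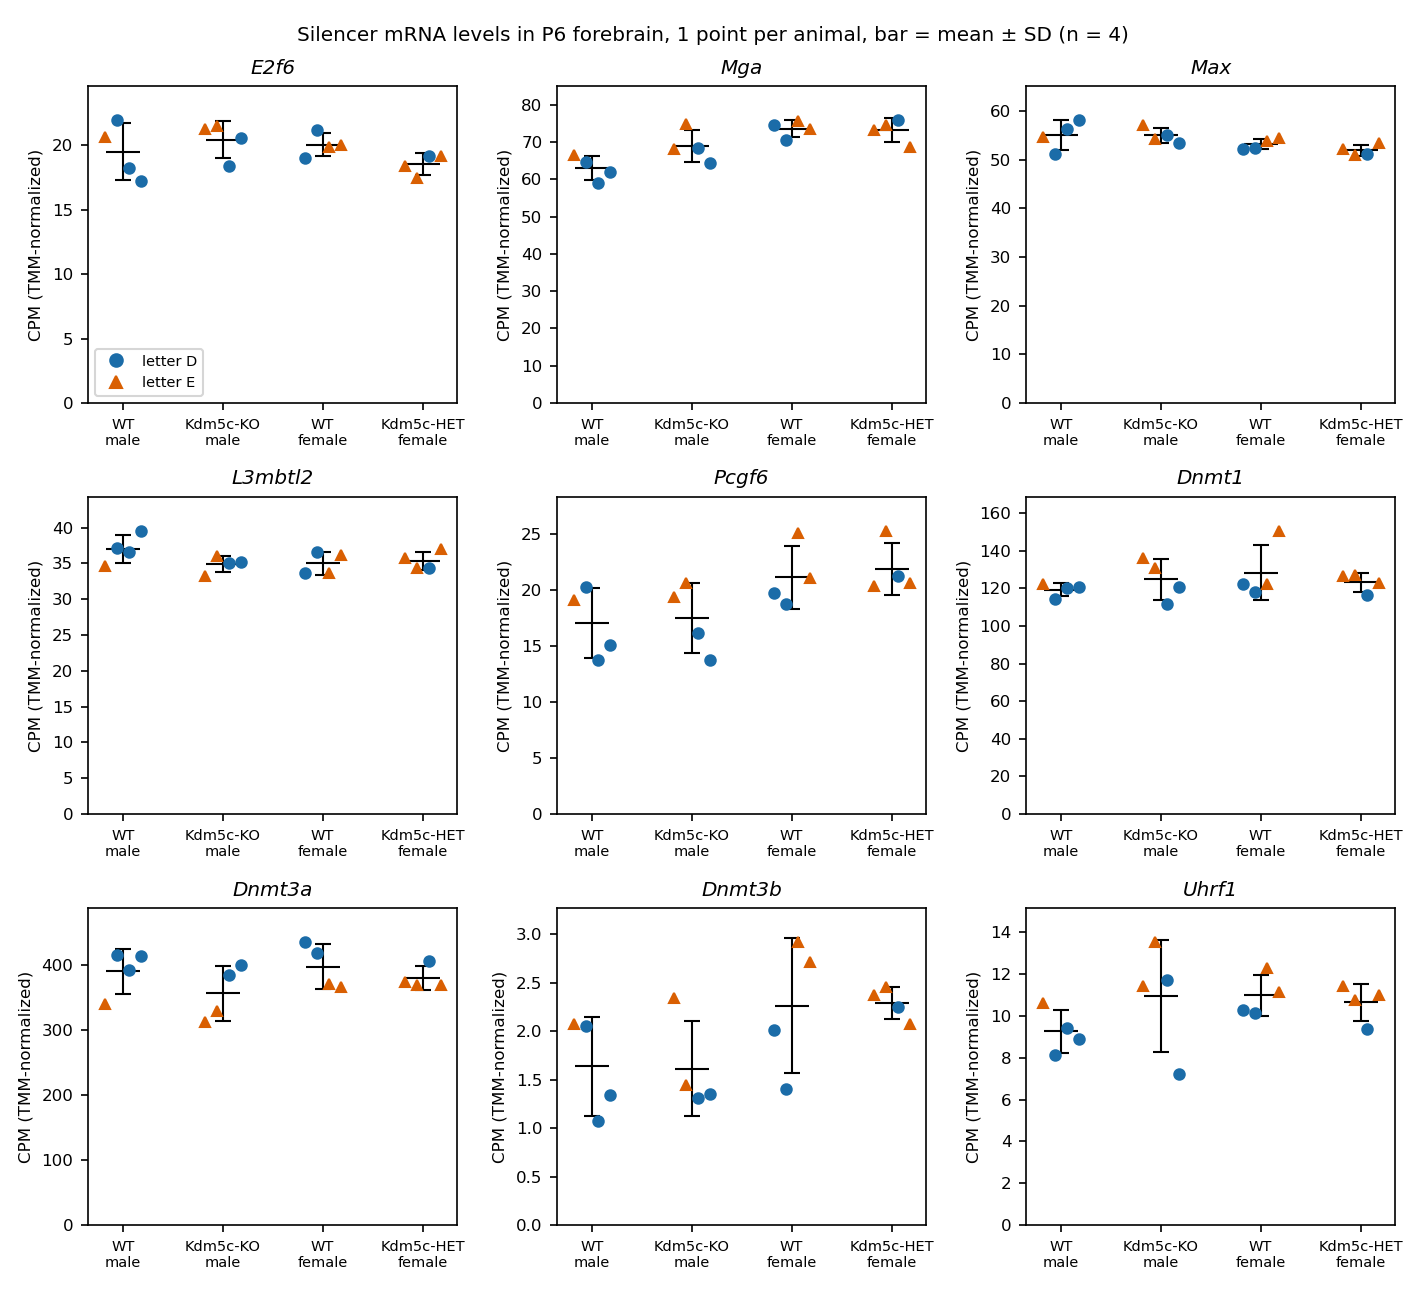
TMM-normalized CPM (y axis, from 0) of each silencer in the 4 groups (x axis), with 1 point per animal, circles for letter D, triangles for letter E, and bars for the mean ± SD (n = 4). *Dnmt3a* runs from 313 to 375 CPM in animals of letter E and from 385 to 436 CPM in animals of letter D, while the mutant groups overlap the WT groups of their sex for all 9 genes.

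*Dnmt1* encodes the maintenance methyltransferase (ENSMUSG00000004099, chr9:20907206-20959888). *Dnmt1* was at 114 (2D), 120.1 (5D), 121 (7D), and 122 CPM (1E) in WT males and at 112 (4D), 121 (6D), 136 (2E), and 131 CPM (3E) in *Kdm5c*-KO males. In WT females, it was at 122 (1D), 118 (3D), 122 (4E), and 150.5 CPM (5E). In *Kdm5c*-HET females, it was at 116 (9D), 127 (6E), 127 (8E), and 123 CPM (9E). In each group the highest animal was one of letter E, and WT female 5E was the highest of all 16.

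*Uhrf1* encodes the reader of hemimethylated DNA that recruits DNMT1 (ENSMUSG00000001228, chr17:56303337-56323486). *Uhrf1* was at 8.15 (2D), 9.41 (5D), 8.92 (7D), and 10.6 CPM (1E) in WT males. It was at 11.7 (4D), 7.21 (6D), 11.4 (2E), and 13.5 CPM (3E) in *Kdm5c*-KO males, which thus held both the lowest and the highest of all 16 values. WT females ranged from 10.2 to 12.3 CPM and *Kdm5c*-HET females from 9.40 to 11.5 CPM.

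*Dnmt3a* encodes the *de novo* methyltransferase of postnatal neurons (ENSMUSG00000020661, chr12:3801559-3914443). *Dnmt3a* was at 415 (2D), 392 (5D), 415 (7D), and 340.5 CPM (1E) in WT males and at 385 (4D), 400.0 (6D), 313 (2E), and 329 CPM (3E) in *Kdm5c*-KO males. In WT females, it was at 436 (1D), 419 (3D), 371 (4E), and 366 CPM (5E). In *Kdm5c*-HET females, it was at 407 (9D), 375 (6E), 369.9 (8E), and 369.6 CPM (9E). Every animal of letter D was above every animal of letter E, whatever its sex and genotype.

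*Dnmt3b*, the other *de novo* methyltransferase gene (ENSMUSG00000027478, chr2:153649411-153687730), had few reads, 30 to 70 counts per animal, and the widest relative spread of the 9, with a coefficient of variation of 28.7%. *Dnmt3b* was at 2.06 (2D), 1.07 (5D), 1.34 (7D), and 2.08 CPM (1E) in WT males and at 1.31 (4D), 1.35 (6D), 2.34 (2E), and 1.45 CPM (3E) in *Kdm5c*-KO males. In WT females, it was at 2.01 (1D), 1.40 (3D), 2.92 (4E), and 2.72 CPM (5E). The *Kdm5c*-HET females stayed within 2.08 to 2.46 CPM. Each of these 4 was above 3 of the 4 WT males.

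Some of these counts may hold reads of neighbouring genes. In RefSeq, *Mga* overlaps *Gm13998*, *L3mbtl2* overlaps *Chadl* and *Gm18284*, *Dnmt1* overlaps *Mir7081*, and *Dnmt3a* overlaps *Dnmt3aos* and *Gm31623*. The strand setting of the counting is not stated, so their reads cannot be told apart here.

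The first comparison asked whether the silencers changed in *Kdm5c*-KO males. None of the 9 was called against WT males by edgeR, where 5.24% of all genes tested were, and none by DESeq2. For none of the 9 did the groups stand without overlap, against 8.91% of all genes. At an unadjusted p under 0.05, 1 of the 9 passed, against 16.5% of all genes. That gene was *Mga*, with a Log2FC of 0.13 (95% interval 0.02 to 0.24; q = 0.212 by edgeR). Its 2 groups overlapped, and an exact permutation test of 4 animals against 4, which cannot go below 0.0286, gave p = 0.0857.

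The other PRC1.6 subunits differed less. *E2f6* had a Log2FC of 0.07 (-0.09 to 0.23), *Max* of -0.00 (-0.10 to 0.09), *L3mbtl2* of -0.08 (-0.19 to 0.03), and *Pcgf6* of 0.04 (-0.24 to 0.32). The intervals of *Max* and *L3mbtl2* thus leave room for changes of at most 0.19 in either direction on the log2 scale, while that of *Pcgf6* is wider.

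Of the DNA methylation genes, *Dnmt1* had a Log2FC of 0.07 (-0.07 to 0.21) and *Dnmt3b* of -0.01 (-0.57 to 0.54) in *Kdm5c*-KO males, so that the interval of *Dnmt3b* holds changes of up to 0.54 in both directions. *Uhrf1* had the largest point estimate of the 9, at 0.25 (-0.05 to 0.54; q = 0.402 by edgeR). This value moved with single animals. Over the 16 fits that each left out 1 animal, it ranged from 0.13 (without *Kdm5c*-KO male 3E) to 0.40 and q by edgeR from 0.042 to 0.764, and only the fit without *Kdm5c*-KO male 6D, at 7.21 CPM, called it. *Dnmt3a* had a Log2FC of -0.13 (-0.29 to 0.03; q = 0.427 by edgeR), and -0.08 with the letter as a covariate (-0.15 to -0.01; q = 0.231). With the letter, the other values were 0.12 for *Mga*, 0.17 for *Uhrf1*, -0.03 for *Pcgf6*, and -0.14 for *Dnmt3b*, and none of the 9 was called. Among animals of letter D the difference in mean log2 CPM of *Dnmt3a* was -0.05 (2 against 3 animals), and among those of letter E it was -0.08 (2 against 1).

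The second comparison addressed the females, in which 1 copy of *Kdm5c* is intact. None of the 9 was called in *Kdm5c*-HET against WT females by edgeR or DESeq2, where edgeR called 0.509% of all genes tested. None had an unadjusted p under 0.05 either, against 6.49% of all genes, and all 9 had overlapping groups, while 4.47% of all genes did not. The Log2FC values ran from -0.11 for *E2f6* (-0.27 to 0.05) to 0.05 for *Pcgf6* (-0.22 to 0.33), with edgeR q-values from 0.937 to 0.999. *Mga* was at -0.01 (-0.12 to 0.10), *Dnmt3a* at -0.07 (-0.23 to 0.10), *Dnmt1* at -0.06 (-0.20 to 0.08), and *Uhrf1* at -0.04 (-0.33 to 0.25). With the letter as a covariate, *Pcgf6* was at -0.01, *Dnmt3a* at -0.00, *Dnmt1* at -0.09, and *Uhrf1* at -0.11, and again none was called.

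**Figure D2:**
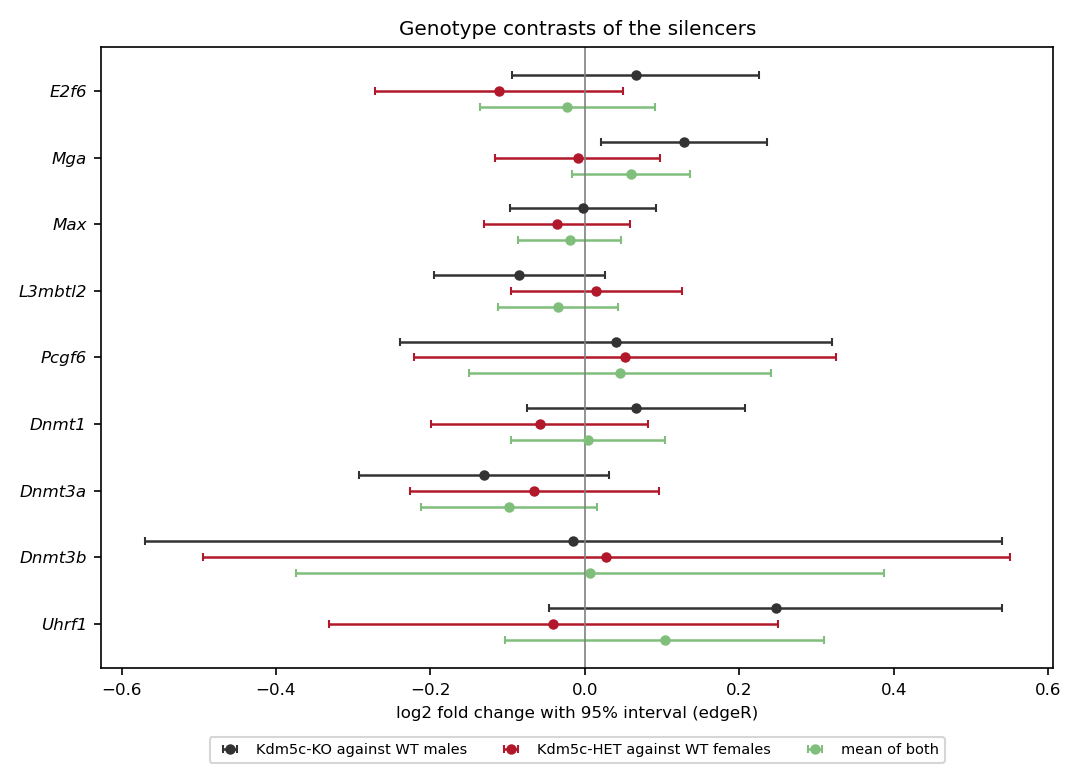
Log2FC (x axis) with 95% intervals from edgeR for each silencer (y axis) in *Kdm5c*-KO against WT males, *Kdm5c*-HET against WT females, and the mean of both contrasts. Apart from *Mga* in males (0.02 to 0.24), every interval includes 0, and the intervals of *Dnmt3b* are the widest.

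The effect of *Kdm5c* was then compared between the sexes. The sex by genotype interaction called none of the 9 by edgeR or DESeq2, against 0.0392% of all genes tested by edgeR, and none had an unadjusted p under 0.05 (6.37% of all genes). *Uhrf1* had the largest point estimate, at 0.29 higher in males on the log2 scale (-0.12 to 0.70; q = 0.847 by edgeR). *E2f6* was at 0.18 (-0.05 to 0.40; q = 0.832) and *Mga* at 0.14 (-0.01 to 0.29; q = 0.778) in the same direction. With the letter as a covariate, these values were 0.28, 0.18, and 0.14.

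Averaging both genotype contrasts gave narrower intervals than either alone. None of the 9 was called in both mutants against both WT groups by edgeR or DESeq2 (5.12% of all genes tested by edgeR), and none had an unadjusted p under 0.05 (15.2% of all genes). *E2f6* was at -0.02 (-0.14 to 0.09), *Mga* at 0.06 (-0.02 to 0.14), *Max* at -0.02 (-0.09 to 0.05), and *L3mbtl2* at -0.03 (-0.11 to 0.04). *Pcgf6* was at 0.05 (-0.15 to 0.24). For *Dnmt1* the value was 0.00 (-0.10 to 0.10), for *Uhrf1* 0.10 (-0.10 to 0.31), for *Dnmt3a* -0.10 (-0.21 to 0.02; q = 0.425), and for *Dnmt3b* 0.01 (-0.37 to 0.39). The mutants hold more animals of letter E than the WT groups do, and with the letter as a covariate *Uhrf1* was at 0.03 (-0.14 to 0.20), *Dnmt3a* at -0.04 (-0.09 to 0.01), *Pcgf6* at -0.02, and *Dnmt3b* at -0.10, with none of the 9 called. The median Log2FC of the 9 was 0.00, beside -0.00 over all genes tested, and the median of their absolute values was 0.03, beside 0.07.

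The germline genes that PRC1.6 and DNA methylation are known to silence give the setting for these values. Of 36 listed germline genes, 6 could be matched to an identifier, and only because the study had picked them as changed in these animals, so their direction is not independent evidence. All 6 rose in *Kdm5c*-KO males by edgeR, which called 3.55% of all genes tested as higher there. *Tex14*, needed for intercellular bridges of germ cells, went from 17 to 27 counts in WT to 202 to 252 in *Kdm5c*-KO males (Log2FC 3.36, q = 6.51e-10), and 9 small or predicted RefSeq genes overlap it. *Zar1*, an egg factor, rose by 2.47 (q = 7.41e-07), *Ddx4*, a germ cell RNA helicase, by 1.13 (q = 0.0294), and the piRNA pathway genes *Tdrd1* and *Piwil1* by 0.88 (q = 0.0181) and 0.81 (q = 0.0436). *D1Pas1*, a testis RNA helicase, went from 0 to 4 counts in WT to 37 to 88 in *Kdm5c*-KO males. In females, *Tex14* (1.35, q = 0.00131) and *Zar1* (1.13, q = 0.0473) were called. In the same *Kdm5c*-KO males the 9 silencers had Log2FC values between -0.13 and 0.25.

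Of the other genes of these pathways on the lists used, 1 of 12 further PRC1.6 subunits and 1 of 9 further MAX partners could be matched and are given here, again among genes the study chose on these samples. *Yaf2*, a subunit that PRC1.6 shares with other PRC1 complexes, fell in *Kdm5c*-KO males by 0.15 on the log2 scale (q = 0.0942 by edgeR), from 86.1 to 93.1 CPM in WT males to 77.3 to 86.1 CPM. *Mycl*, a MYC family partner of MAX, rose by 0.18 (q = 0.0789), from 74.9 to 82.96 CPM to 84.0 to 98.9 CPM. In *Kdm5c*-HET against WT females, these genes had q-values of 0.953 and 0.975. *Yaf2* was also lower (-0.08, q = 0.0597) and *Mycl* higher (0.11, q = 0.0238) in letter E, and with the letter as a covariate their values in *Kdm5c*-KO males were -0.13 (q = 0.0533) and 0.15 (q = 0.0401).

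Sex was compared in the WT animals. Of the 9, 1 was called in WT females against WT males, where 5% of all genes tested were called and 2.59% were higher in females. At an unadjusted p under 0.05, 2 of the 9 passed, against 18.1% of all genes. The gene called was *Mga*, which was higher in females, at 73.6 ± 2.25 CPM against 63.1 ± 3.23 CPM (SD, n = 4 each). The Log2FC was 0.22 (0.11 to 0.33; q = 0.0363 by edgeR), which is 1.17-fold, and the groups did not overlap (exact permutation p = 0.0286, the smallest that 4 against 4 can give). Groups of 4 did not overlap for 10.6% of all genes in this comparison. Within letter D the difference of *Mga* in mean log2 CPM was 0.23 (2 females and 3 males), and within letter E it was 0.16 (2 females and 1 male). With the letter as a covariate, q was 0.0158, in a fit that called 9.4% of all genes.

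The call of *Mga* rested on few animals. Without WT female 5E, q was 0.119, and without WT male 5D, the lowest of all 16, it was 0.141, with Log2FC values of 0.22 and 0.19. Without both WT males with many *Ttr* reads, 2D and 5D, the Log2FC was 0.19 and q was 0.295, in a fit that kept WT females 1D and 3D. The number of genes called in this comparison over the whole table fell in the same 3 fits from 894 to 69, 73, and 10.

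The next members in this comparison by unadjusted p were *Pcgf6* (Log2FC 0.31, 0.03 to 0.59; q = 0.22) and *Dnmt3b* (0.46, -0.08 to 1.001; q = 0.36), both with higher means in WT females and overlapping groups. Among the alternatives run, *Pcgf6* was called only when no filter on low counts was applied (q = 0.0361). *Uhrf1* had a Log2FC of 0.24 (-0.05 to 0.54), *Dnmt1* of 0.11 (-0.03 to 0.25), *E2f6* of 0.04 (-0.12 to 0.20), and *Dnmt3a* of 0.03 (-0.14 to 0.19). *Max* and *L3mbtl2* had negative values, -0.05 (-0.14 to 0.05) and -0.08 (-0.19 to 0.03).

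The sexes were also compared in the mutants, a comparison chosen after seeing the data. None of the 9 was called in *Kdm5c*-HET females against *Kdm5c*-KO males by edgeR, where 1.57% of all genes tested were. *Mga* had a Log2FC of 0.09 here (-0.02 to 0.19; q = 0.504 by edgeR), with overlapping groups. *Pcgf6* was at 0.32 (0.05 to 0.60; q = 0.289), beside 0.31 in the WT animals, and *Dnmt3b* at 0.50 (-0.03 to 1.04; q = 0.418), beside 0.46. *Max* was lower in every *Kdm5c*-HET female than in every *Kdm5c*-KO male, at -0.08 (-0.18 to 0.01; q = 0.459, exact permutation p = 0.0286), and groups did not overlap for 7.85% of all genes.

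*Dnmt3a* was at 0.09 in this comparison of mutants (-0.07 to 0.25; q = 0.662 by edgeR). With the letter as a covariate, *Dnmt3a* was 0.15 higher in *Kdm5c*-HET females on the log2 scale (q = 0.0133), in a fit that called 5.51% of all genes. In WT females against WT males the value of *Dnmt3a* with the letter was 0.08 (q = 0.163).

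**Figure D3:**
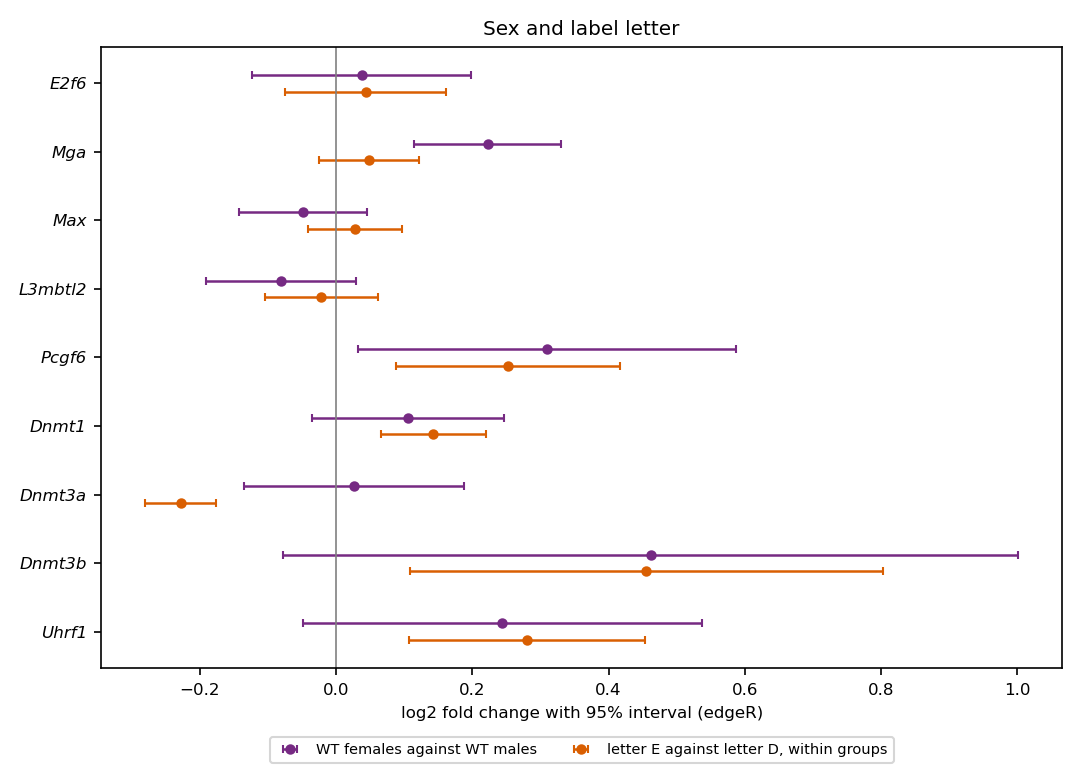
Log2FC (x axis) with 95% intervals from edgeR for each silencer (y axis) in WT females against WT males and in letter E against letter D within groups. In the comparison of sexes only the intervals of *Mga* (0.11 to 0.33) and *Pcgf6* (0.03 to 0.59) exclude 0, whereas *Dnmt3a* is lower (-0.28 to -0.18) and *Pcgf6*, *Dnmt1*, *Dnmt3b*, and *Uhrf1* are higher in letter E.

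The letters were compared within groups after the values had been seen, in a fit with 1 mean per group and the letter as a covariate. Of the 9, 5 were called, beside 23.6% of all genes tested. *Dnmt3a* was lower in letter E, like 12% of all genes, and the other 4 were higher, like 11.6%. *Dnmt3a* had a Log2FC of -0.23 (-0.28 to -0.18; q = 1.93e-06 by edgeR), which is 0.854-fold. Its mean was 354 ± 23.4 CPM in the 8 animals of letter E and 409 ± 16.1 CPM in the 8 of letter D (SD). These ranges did not overlap, as was the case for 2.81% of all genes. *Dnmt3a* was lower in letter E without overlap within each of the 4 groups. For 8.52% of all genes, letter E was without overlap either lower in all 4 groups or higher in all 4. The differences in mean log2 CPM were -0.26 and -0.29 among WT and *Kdm5c*-KO males and -0.21 and -0.13 among WT and *Kdm5c*-HET females. An exact test over the 576 relabellings of animals within groups gave p = 0.00174, the smallest it can give.

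The maintenance genes went the other way. *Dnmt1* was higher in letter E by 0.14 (0.07 to 0.22; q = 0.00917) and *Uhrf1* by 0.28 (0.11 to 0.45; q = 0.0224), each with an exact p of 0.00347. For both, the letters did not overlap in 3 of the 4 groups. *Pcgf6* was higher by 0.25 (0.09 to 0.42; q = 0.0303, exact p = 0.026), with no overlap in 2 groups, the *Kdm5c*-KO males and the WT females. *E2f6* and *Mga*, which were not called, also had no overlap in 2 groups, higher in letter E in 1 and lower in the other. The share of all genes with no overlap in 2 or 3 groups was not computed. *Dnmt3b* was higher by 0.46 (0.11 to 0.80; q = 0.0646, exact p = 0.0226), and this call was lost without any 1 of 6 animals: WT females 3D, 4E, and 5E, *Kdm5c*-KO males 4D and 2E, or WT male 1E (q from 0.103 to 0.158).

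The other 4 members, all of PRC1.6, were not called between the letters, with Log2FC values of 0.05 for *Mga*, 0.04 for *E2f6*, 0.03 for *Max*, and -0.02 for *L3mbtl2* and edgeR q-values from 0.395 to 0.766. In fits of 1 sex alone, 2 of the 9 were called among the 8 males, where 11.3% of all genes tested were, and 2 among the 8 females, where 14.1% were, and in both cases these were *Dnmt1* and *Dnmt3a*. *Dnmt3a* was at -0.28 in males (q = 0.000756) and -0.18 in females (q = 0.000834).

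Markers of several cell types moved with the letter as well. In letter E, *Aqp4* of astrocytes was lower, with a Log2FC of -0.20 (q = 0.000214 by edgeR), as was *Rbfox3* of neurons at -0.12 (q = 0.00625). *Aqp1* of the choroid plexus was lower at -1.28 (q = 0.00447), and *Emx1* was at -0.01. *Ttr* had a fitted value of -3.19 (q = 0.091) but no common direction, since the differences in mean log2 CPM were -7.43 and -5.60 in WT males and WT females, 5.13 in *Kdm5c*-HET females, and -0.00 in *Kdm5c*-KO males. In *Kdm5c*-KO males, *Rbfox3* fell by 0.19 (q = 0.0642), *Emx1* fell by 0.23 (q = 0.0948), and *Aqp1* fell by 1.999 (q = 0.0642), while *Aqp4* (-0.24, q = 0.115) was not called. *Ttr* was at -5.76 (q = 0.0643), with 2D and 5D far above the other WT males, and the difference in its mean log2 CPM was -4.97 within letter D (2 against 3 animals) and 2.46 within letter E (2 against 1, the WT male with 6 counts). *Emx1* was also lower in WT females than in WT males (-0.24, q = 0.0823). Of the 4 matched hemoglobin genes of red blood cells, *Hba-a1* (q = 0.00131), *Hba-a2* (q = 0.00904), and *Hbb-bs* (q = 0.0557) fell in *Kdm5c*-KO males, *Hba-a1* (q = 0.0417) and *Hba-a2* (q = 0.0519) were lower in WT females than in WT males, and none of the 4 was called between the letters. These genes had identifiers only because the study lists them as changed, the markers of microglia, endothelium, and meninges and the genes of cycling cells had none and are not analysed here, and the part of cell composition in the values of the silencers was not tested.

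The variance of log2 CPM over the 16 animals was divided by adding sex, genotype within sex, and the letter within groups in that order. For *Dnmt3a*, the letter took 69.1% and genotype 16.5%, with 8.50% left. The letter took 43.0% for *Dnmt1*, 37.3% for *Uhrf1*, 26.5% for *Dnmt3b*, and 22.5% for *Pcgf6*, and 2.89% to 5.63% for the other 4. Sex took 51.1% for *Mga*, 41.7% for *Pcgf6*, 35.3% for *Dnmt3b*, and 34.1% for *Max*. Genotype within sex took at most 22.7%, the value of *L3mbtl2*.

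**Figure D4:**
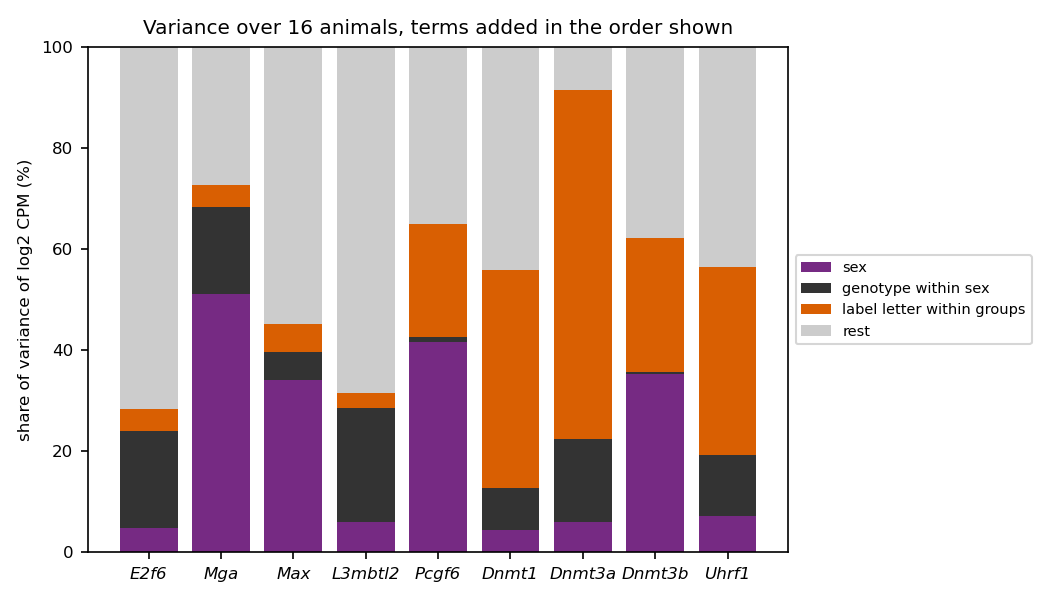
Share of the variance of log2 CPM over 16 animals (y axis, %) taken by sex, genotype within sex, the label letter within groups, and the rest, for each silencer (x axis). The letter takes 69.1% of the variance of *Dnmt3a*, sex takes 51.1% of that of *Mga*, and most of the variance of *E2f6* (71.6%) and *L3mbtl2* (68.5%) is left to the rest.

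The members were also compared with each other, as Pearson's r and Spearman's rho of their deviations from the group means over 16 animals, for all 36 pairs. None of the 36 reached an adjusted p under 0.05 in the permutation test within groups. *Mga* and *Pcgf6* had the highest value (r = 0.78, permutation p = 0.0033, adjusted p = 0.0594; rho = 0.79, permutation p = 0.00363, adjusted p = 0.106). Without the 2 animals farthest from the median of *Mga*, r was 0.69, and with the letter taken out as well it was 0.75. *Pcgf6* and *Dnmt3b* had r = 0.76 (permutation p = 0.00903, adjusted p = 0.0813; rho = 0.77, permutation p = 0.0088, adjusted p = 0.106), and 0.59 with the letter taken out.

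*Dnmt3a* had negative values with the maintenance genes, and neither pair reached an adjusted p under 0.05 in the permutation test. Its r was -0.72 with *Uhrf1* (permutation p = 0.00329, adjusted p = 0.0594; rho = -0.70, permutation p = 0.00698, adjusted p = 0.106) and -0.70 with *Dnmt1* (permutation p = 0.00743, adjusted p = 0.0813; rho = -0.68, permutation p = 0.0196, adjusted p = 0.177). Without the 2 farthest animals these were -0.65 and -0.70. With the letter taken out they were -0.33 and -0.14.

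**Figure D5:**
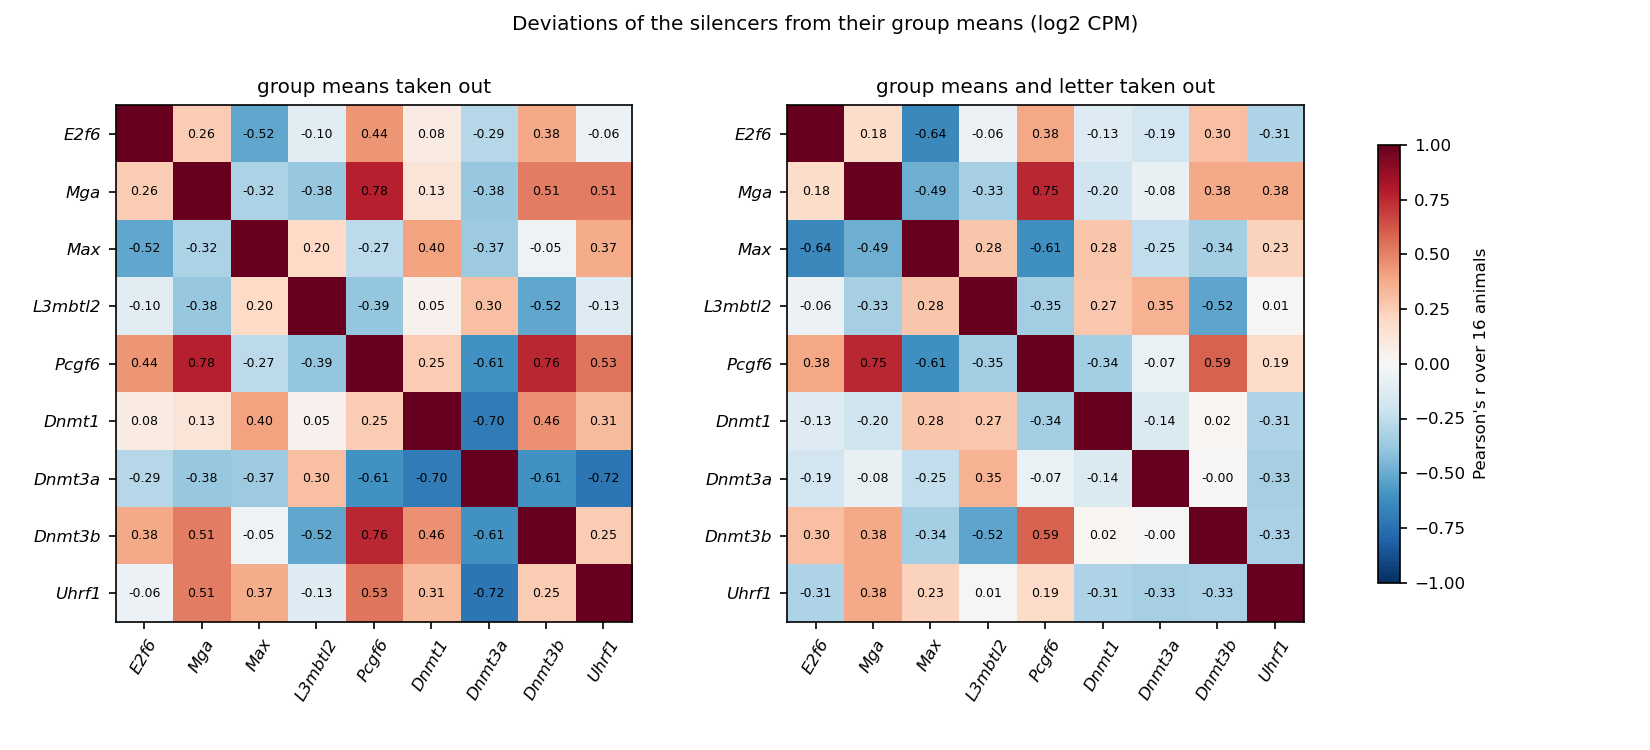
Pearson's r between the silencers (both axes, color scale from -1 to 1) over 16 animals, for log2 CPM with the group means taken out (left) and with the group means and the letter taken out (right). *Mga* and *Pcgf6* stay at 0.78 and 0.75, whereas *Dnmt3a* and *Dnmt1* go from -0.70 to -0.14.

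Among 1018 tested genes with a symbol, nearly all of them chosen by the study as changed, the 2 most like each member by the same r were taken. The closest to *Dnmt3a* were *Cacna1i*, a calcium channel gene (r = 0.96), and *Dlg4*, which encodes the postsynaptic protein PSD-95 (r = 0.95), at 0.76 and 0.48 with the letter taken out. *Dnmt1* was closest to *Aff2* (0.92) and *Akap9* (0.89), *Uhrf1* to *AW822252* (0.84) and *Fam107b* (0.80), and *Dnmt3b* to *Arhgap21* (0.84) and *Rps4l* (0.81). Within PRC1.6, *Mga* (0.82) and *Pcgf6* (0.89) shared *Otof*, beside *Wnk1* (0.80) for *Mga* and *Npr2* (0.90) for *Pcgf6*. *E2f6* was closest to *Baiap2l2* (0.82) and *C2cd4d* (0.80), *Max* to *Sos1* and *Fam110b* (both 0.79), and *L3mbtl2* to *Meltf* (0.72). These values are a description of 16 shared libraries and carry no test.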

How the data were processed

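Poly(A) mRNA of 16 P6 forebrains was sequenced by the authors, who mapped reads to mm10 with STAR (2.5.3a per the submitters' processing notes), removed duplicates, and counted uniquely mapped reads per gene with FeatureCounts (Subread 1.5.0). The authors deposited raw counts for 54219 genes, and 35337 of these were read in 1 animal or more. The analysis used edgeR 4.0.16 (R 4.3.3). After filterByExpr (17866 genes) and TMM normalization, glmQLFit was run on the 16 animals with a mean for each group and no covariate, following the study's methods. Contrasts were tested with glmQLFTest, with Benjamini-Hochberg adjustment over all genes tested and a threshold of 0.1. The 95% intervals came from the same fit. Single members were compared by exact two-sided permutation tests, and correlations used log2 CPM (prior count 2) and 100000 permutations. The code was tested on simulated data.

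The members and lists were chosen with earlier results of these data known. All 9 members are named, with list genes called in any contrast (up to 6 per list) and the 2 genes most like each member. Some genes that this rule names are not reported here. Alternatives were DESeq2 1.42.0, its size factors in edgeR, other filters and thresholds, fewer animals, and the letter as a covariate. The letter contrast, the fits of 1 sex for it, within-letter values, and *Kdm5c*-HET females against *Kdm5c*-KO males were chosen after seeing the data. Identifiers were paired with symbols for the members and for 1014 genes in a table of the study. Coordinates are RefSeq's on GRCm38.p6 (mm10), by symbol, for 9 of 9 members. Promoter, miRNA, and protein sequences were not used here. Animals are taken as separate mice per the study's methods.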

Additional observations from a re-analysis of the deposited data

Results flagged for a closer look

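In each of the 36 combinations of member and group, the highest and the lowest animal were compared with the other 3 by Dixon's gap ratio, and 3 stood apart. Chance gives about 1 in 20. *Dnmt1* in WT female 5E was at 150.5 CPM, against 118 to 122 CPM in the other WT females. *Dnmt3a* in *Kdm5c*-HET female 9D was at 407 CPM, against 369.6 to 375 CPM in the others, and 9D is the only animal of letter D in that group. *Dnmt3b* in *Kdm5c*-KO male 2E was at 2.34 CPM, against 1.31 to 1.45 CPM in the other *Kdm5c*-KO males.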

How the results depend on the processing

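Under every alternative that could be run, including each animal left out in turn, 0 of the 9 were called in *Kdm5c*-HET against WT females, in the interaction, and in both mutants together. In *Kdm5c*-KO against WT males the count was 0 except for 1 (*Uhrf1*) without *Kdm5c*-KO male 6D (6.21% of all genes tested in that fit), a range of 0 to 1 over the animals left out. In WT females against WT males it was 1 (*Mga*), but 2 (*Mga* and *Pcgf6*) without a filter on low counts (3.67%), 0 without WT males 2D and 5D (0.0539%), and 0 to 1 with 1 animal left out (0.379% to 6.84%). Between the letters it was 5, beside 23.6% of all genes, but 2 in the 8 males (11.3%), 2 in the 8 females (14.1%), 4 at a threshold of 0.05 (17.2%), and 4 to 5 with 1 animal left out (19% to 23.5%). The causes were not tested. A fit of 8 animals could not be made for the interaction and for both mutants together. No member's called value changed sign. No paired analysis was possible because WT and mutant animals of a sex share fewer than 2 label numbers, and the 2 numbers that WT females and WT males share (1 and 5) stand with different letters and are not said to mark a common litter. The depth limits *Dnmt3b* most, at 30 to 70 counts per animal.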
